A study of Mus musculus with 14 samples.

Results

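Mitotic spindle, kinetochore and cytokinesis genes were followed as a set of 49 named genes, which were found by symbol among the 30503 genes of the count table. Bulk RNA-seq had been made from 14 cultures, every one grown from 1 tdTomato+ colony that was picked after femur marrow cells had been plated sparsely. The Fgfr3-WT (P23) group held 5 clones isolated at P23 from Fgfr3-creER; R26R(tdTomato/+) mice. The Fgfr3-p53 cKO (P28) group held 5 clones isolated at P28 and the Fgfr3-p53 cKO (P4M) group 4 clones isolated at 4 months, all from mice that carried Trp53 fl/fl alleles besides the same Fgfr3-creER and reporter alleles. Every mouse had received tamoxifen at P21, so that Fgfr3-creER, a tamoxifen-inducible Cre driven by Fgfr3 regulatory sequence, marked the cells and, in the cKO mice, recombined Trp53. Each culture is 1 clone, and the cells were at passage 8 in the WT and P28 groups and at passages 6-8 in the P4M group. The libraries are described as separate clones and elsewhere as separate mice, and the labels do not tie a clone to an animal, so P values measure the spread between these clones. The paper reports that WT clones took significantly longer to reach the same passage than cKO clones isolated at the younger age. It also reports that a smaller share of the WT clones got that far. An equal passage number is therefore not an equal time in culture, and the part of time in culture in the results was not tested. The 3 groups also differ in genotype and in age at isolation. The library titles carry 1 leading number in all WT clones and another in all cKO clones. What that number stands for is not stated in the sources used here, and it cannot be told apart from genotype.

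Mitosis is run by cyclin B with Cdk1, by the Polo and Aurora kinases, and by the condensins that compact the chromosomes. Kinetochores built on centromeres attach chromosomes to the spindle, and the spindle assembly checkpoint holds the anaphase-promoting complex in check until all are attached. Separase then cuts cohesin, and the central spindle and a contractile ring divide the cell. Most of these genes are transcribed late in the cell cycle, through the MuvB complex with B-Myb (Mybl2) and FoxM1, while the DREAM complex represses them in resting cells, and p53 acts on DREAM through p21.

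Promoters of mitotic genes are known for CCAAT boxes, which NF-Y binds, and for the cell cycle genes homology region (CHR), TTTGAA or less often TTCGAA, which MuvB binds. The 250 bases before the annotated start of 4 members are shown as examples that carry both kinds of letters. In the Ccnb2 stretch the CHR match begins at base -167 and the nearest CCAAT box at -87. Another Ccnb2 CHR match begins at base 5 after the start, outside the stretch shown. Capitals mark both kinds of letters on either strand. A CCAAT box on the reverse strand reads ATTGG. A CHR on the reverse strand can read TTCAAA. The sequences are from RefSeq on GRCm38.p6, each 5′ to 3′ on the minus strand of its chromosome.
Ccnb2 (chr9:70421555-70421804): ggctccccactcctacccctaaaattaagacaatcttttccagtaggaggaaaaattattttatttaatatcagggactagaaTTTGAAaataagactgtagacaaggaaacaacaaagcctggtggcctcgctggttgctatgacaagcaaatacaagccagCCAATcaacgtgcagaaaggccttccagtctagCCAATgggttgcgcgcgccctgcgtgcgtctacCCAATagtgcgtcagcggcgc
Cdk1 (chr10:69352913-69353162): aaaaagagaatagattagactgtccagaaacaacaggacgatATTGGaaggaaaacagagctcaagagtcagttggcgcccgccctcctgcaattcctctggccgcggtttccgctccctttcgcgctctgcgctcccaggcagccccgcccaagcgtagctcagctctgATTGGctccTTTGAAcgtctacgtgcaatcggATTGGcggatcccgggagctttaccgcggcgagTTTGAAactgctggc
Top2a (chr11:99024190-99024439): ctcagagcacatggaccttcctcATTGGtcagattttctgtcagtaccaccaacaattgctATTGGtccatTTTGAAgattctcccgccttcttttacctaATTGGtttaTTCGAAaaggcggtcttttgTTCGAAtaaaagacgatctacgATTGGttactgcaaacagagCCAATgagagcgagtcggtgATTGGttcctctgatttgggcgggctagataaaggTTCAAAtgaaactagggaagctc
Cdc20 (chr4:118437344-118437593): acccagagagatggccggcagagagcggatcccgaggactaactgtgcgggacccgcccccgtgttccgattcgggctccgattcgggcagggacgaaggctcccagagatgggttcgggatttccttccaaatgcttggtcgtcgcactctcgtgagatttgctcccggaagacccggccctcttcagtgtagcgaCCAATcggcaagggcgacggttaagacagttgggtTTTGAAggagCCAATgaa
The Top2a stretch held 6 CCAAT boxes, and the Cdk1 and Ccnb2 stretches held 3 each.

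CHR letters often lay at the start itself. Windows of 30 bases around the match nearest the start are shown for 6 members chosen after their values were seen, with the CHR letters in capitals, and the sequences again come from RefSeq on GRCm38.p6.
Ube2c (plus strand, chr2:164769888-164769917): ggagggttgcaaTTCAAAcgcgggcggcgg
Espl1 (plus strand, chr15:102296254-102296283): tcactagggataTTTGAAaggaggtgctgg
Racgap1 (minus strand, chr15:99651634-99651663): ctggtgcgtgatTTTGAAccggatctggcg
Bub1 (minus strand, chr2:127831828-127831857): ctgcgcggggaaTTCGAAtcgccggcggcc
Cenpa (plus strand, chr5:30666890-30666919): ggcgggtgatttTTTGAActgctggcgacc
Bub3 (plus strand, chr7:131560315-131560344): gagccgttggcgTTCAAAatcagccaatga
Of the 49 members, 41 had an entry in the promoter table, which spans 250 bases before to 50 bases after each start. CCAAT on either strand was found in 29 of these 41 members (70.7%, 95% Wilson interval 55.5 to 82.4) and in 41.1% of all 27025 genes of the table. TTTGAA on either strand was found in 29 members (70.7%) against 20.2% of all genes, and TTCGAA in 4 members against 1.8%. Either form of the CHR letters was present in 31 members (75.6%, interval 60.7 to 86.2) against 21.7%, and 27 members (65.9%) held CCAAT as well, against 8.6%. Within the 250 bases before the start alone, the CHR share was 36.6% of the members against 19.6%. These are shares of letters, not of bound sites. Ccnb1 held CCAAT but no CHR letters, Mybl2 and Birc5 held neither kind, and Bub3 held both. Foxm1, Smc4, Tpx2 and Incenp were among the members without an entry. Whether the letters go with the size of a change was not tested.

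**Figure D1:**
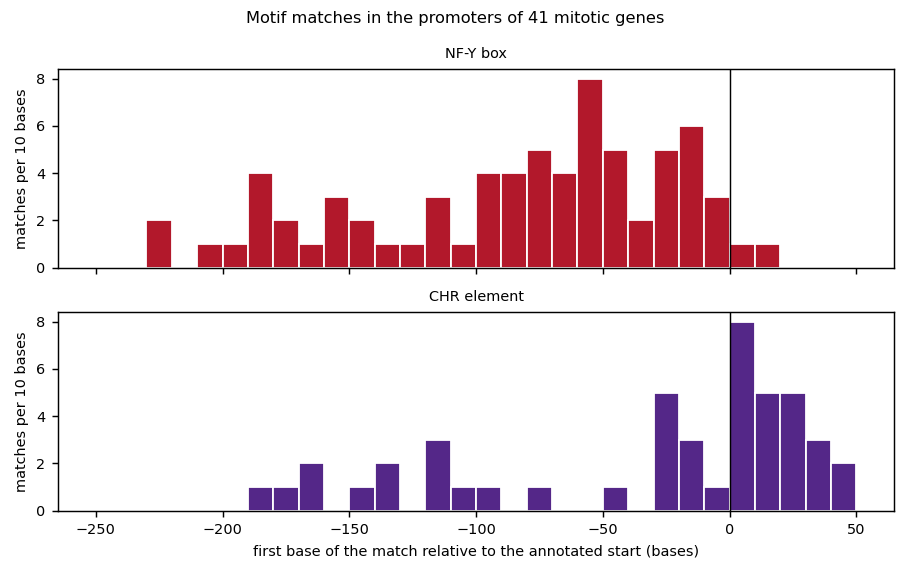
Positions of CCAAT (NF-Y box, top) and of TTTGAA or TTCGAA (CHR element, bottom) on either strand in the promoters of 41 members; the x axis is the first base of the match relative to the annotated start in bases and the y axis the matches per 10 bases. The CHR matches gather around the start, where 35 of 46 lie within 100 bases before or 50 bases after it. A match was counted once for each listed start, and 3 members have more than 1 listed start.

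Total counts per clone lay between 25688946 and 38958693 in the WT group, 37606033 and 48648618 in the P28 group and 43757832 and 52857424 in the P4M group. Levels are given as CPM, counts divided by the TMM-scaled library size. Trp53 itself lay at 49.9 to 68.2 CPM in the WT clones, at 2.18 to 2.84 in the P28 clones and at 1.72 to 2.37 in the P4M clones. Of the endothelial markers, Cdh5 was at 0 in all clones and Pecam1, Tek and Emcn did not exceed 0.366 CPM, but Kdr lay at 0 to 0.569 CPM in WT, at 0.307 to 4.11 in P28 and at 2.59 to 12.6 in P4M. The leukocyte marker Ptprc did not exceed 0.154 CPM, while the macrophage gene Cd68 reached 54.3 CPM in the WT group, against 5.61 at most in the cKO clones. The 9 stromal markers summed to 2511 to 12885 CPM in the WT clones, 29827 to 48720 in the P28 clones and 22603 to 87172 in the P4M clones, and Col1a2 was as low as 0.033 CPM in 1 WT clone. Col1a1 and Col1a2 carried that difference, and their WT clones did not overlap either cKO group. Vim, Pdgfra, Pdgfrb, Prrx1, Col3a1 and Fgfr3 overlapped between WT and both cKO groups, and Runx2 overlapped between WT and P28. The part of these cell type markers in the results was not tested. In bulk RNA, a larger share of dividing cells and more RNA of these genes per cell cannot be told apart.

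Mitotic genes were higher in Fgfr3-p53 cKO clones than in Fgfr3-WT clones in nearly every role. In the P28 clones, 47 of 49 members were called higher and none lower (edgeR quasi-likelihood test, Benjamini-Hochberg FDR of 0.05), where 19.2% of all 17358 tested genes were called higher and 38.9% in either direction. In the P4M clones the count was again 47 higher and none lower, against 22.3% of all genes higher and 45.9% in either direction. For the mean of both cKO groups against WT, 47 were called higher, with 23.1% of all genes higher and 48.8% in either direction. The median log2 fold change of the members was 3.35 in P28 and 3.51 in P4M against WT, and 3.42 over all cKO clones, a 10.7-fold difference, while the median over all tested genes was -0.02, -0.06 and -0.05. Without Fgfr3-WT replicate 4 the medians rose to 4.48, 4.59 and 4.47, with 47 members called each time, and 35 of the 49 log2 fold changes moved by over 1.5 times on the linear scale. Both contrasts use the same WT clones. All 9 cKO clones were above all WT clones in 39 members, against 9.73% of all tested genes. The members that did not pass were Bub3 and Pttg1. All members were chosen with earlier results of these data known, so these counts are not independent evidence.

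**Figure D2:**
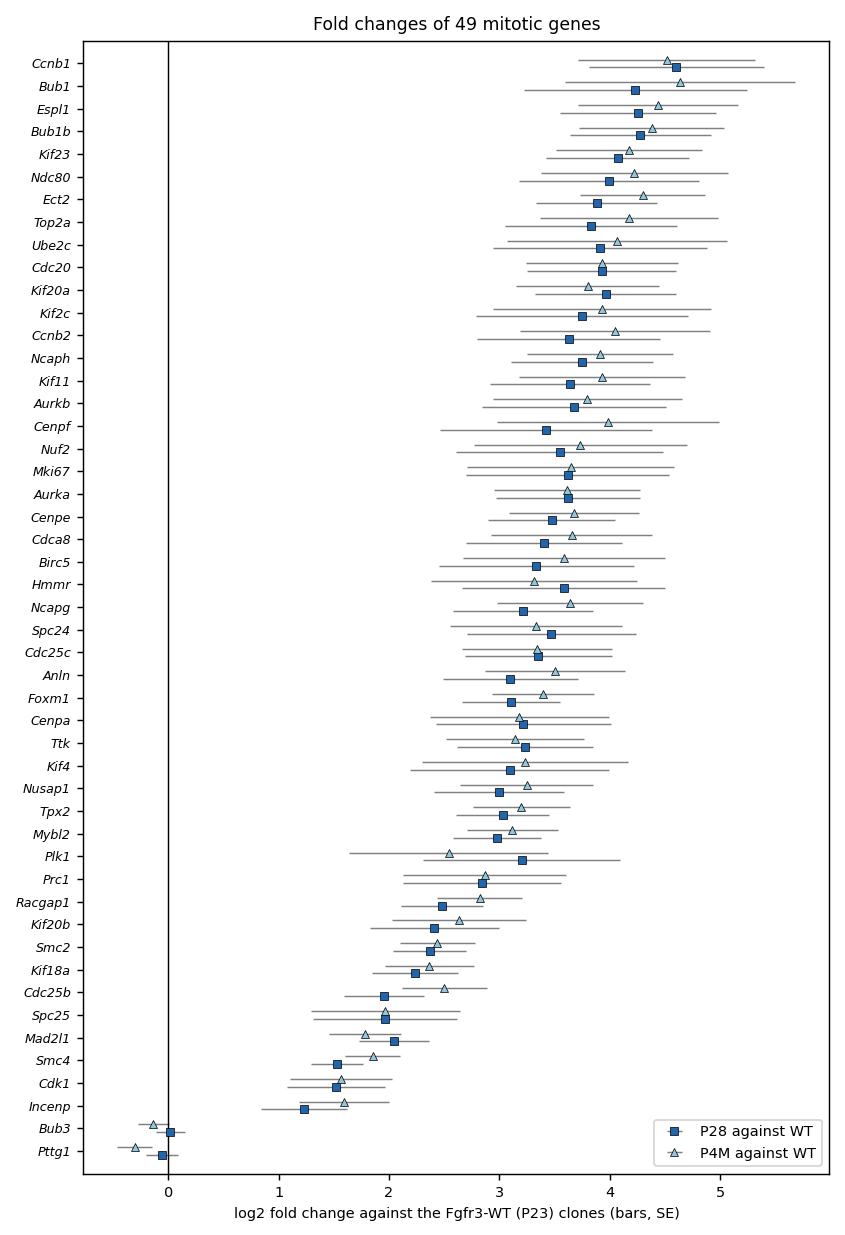
Log2 fold change of each member in the P28 clones (dark squares) and the P4M clones (light triangles) against the Fgfr3-WT (P23) clones, with bars of 1 SE; genes are ordered by the change over all cKO clones. Ccnb1 leads at 4.56 over all cKO clones, Incenp is the smallest called at 1.41, and Bub3 and Pttg1 sit at -0.06 and -0.18.

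At the transcription factors that drive the program, Foxm1, a forkhead activator of G2 and M genes, was measured at 6.55, 4.59, 3.72, 15.02 and 4.39 CPM in the 5 WT clones, at 33.7, 53.2, 56.7, 65.2 and 86.7 in the 5 P28 clones and at 48.6, 38.2, 97.4 and 105 in the 4 P4M clones. No WT clone reached any cKO clone. The log2 fold change over all cKO clones was 3.25 ± 0.42 (SE, n = 9 against 5, edgeR adjusted P = 6.8e-05). Mybl2, the B-Myb partner of MuvB, lay at 1.499, 2.22, 2.35, 3.84 and 2.33 CPM in WT, at 7.14, 20.2, 15.3, 17.1 and 37.02 in P28 and at 15.1, 19.05, 19.4 and 31.6 in P4M, and its groups did not overlap either. Over all cKO clones it rose by 3.05 ± 0.38 on the log2 scale (SE, edgeR adjusted P = 5.1e-05), which was 3.27 without WT replicate 4.

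Like all members, Mki67 and Top2a, the proliferation markers, were chosen with earlier results of these data known, so their direction is not independent evidence. Mki67, which coats mitotic chromosomes, was at 0.8796, 2.41, 0.8495, 33.4 and 5.74 CPM in the WT clones, at 49.1, 103, 136, 105 and 142 in P28 and at 54.9, 60.8, 147 and 172 in P4M. WT replicate 4 stood apart from the other WT clones but stayed under every cKO clone. The log2 fold change was 3.63 ± 0.88 (SE, edgeR adjusted P = 0.0042) and 5.45 without that clone. Top2a, the topoisomerase that untangles sister chromatids, gave 3.45, 4.67, 2.35, 44.96 and 7.95 CPM in WT, 66.4, 159, 193, 209.5 and 273 in P28 and 158, 147, 311 and 304 in P4M. Top2a rose by 4.00 ± 0.75 on the log2 scale (SE, edgeR adjusted P = 0.00082), or 5.46 without WT replicate 4.

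All 7 genes of mitotic entry were called higher in both cKO groups. Ccnb1, cyclin B1, had the largest change of the 49 genes over all cKO clones and in P28, while Bub1 had it in P4M and, over all cKO clones, without WT replicate 4. It lay at 0.749, 0.6504, 0.647, 9.22 and 2.295 CPM in WT, at 28.5, 60.4, 67.1, 80.2 and 97.7 in P28 and at 40.7, 27.7, 89.6 and 93.3 in P4M, and the lowest cKO clone was above the highest WT clone. Its log2 fold change was 4.56 ± 0.76 (SE, edgeR adjusted P = 0.00036) and 5.90 without WT replicate 4. Transcripts of 3 Ccnb1 processed pseudogenes match about 52% of its sequence at 97.3 to 99.2% identity. They held at most 172, 3 and 187 counts in any clone. By the paper's methods, reads that mapped ambiguously were not counted, and how many Ccnb1 reads were left out is uncertain. Cdk1 is the kinase that cyclin B activates. It was at 12.7, 6.62, 13.6, 41.3 and 24.3 CPM in WT, at 29.2, 48.7, 53.9, 68.7 and 82.00 in P28 and at 38.3, 39.3, 82.4 and 73.2 in P4M, so that WT replicate 4 exceeded the lowest clones of both cKO groups. It rose by 1.54 ± 0.41 on the log2 scale (SE, edgeR adjusted P = 0.0074). On the per-length scale of TPM, Cdk1 had the highest mean level of the 7 genes, at 31.5 in WT, 118 in P28 and 102 in P4M. Plk1, the Polo kinase, showed log2 fold changes of 3.20 ± 0.89 in P28 and 2.54 ± 0.90 in P4M (SE, edgeR adjusted P = 0.013 and 0.034), and the P4M call was lost without WT replicate 1, 2 or 5, or without P4M replicate 3 or 4, with adjusted P of 0.055 to 0.079. Without WT replicate 4 its log2 fold change over all cKO clones was 4.44 in place of 2.87. The highest WT clone of Plk1, at 11.1 CPM, was above the lowest P4M clone, at 8.53, and under the lowest P28 clone, at 13.8. The phosphatases Cdc25b and Cdc25c, the cyclin Ccnb2 and the kinase Aurka had log2 fold changes of 2.23, 3.35, 3.84 and 3.62 over all cKO clones, and 2.56, 4.33, 5.42 and 4.47 without WT replicate 4.

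**Figure D3:**
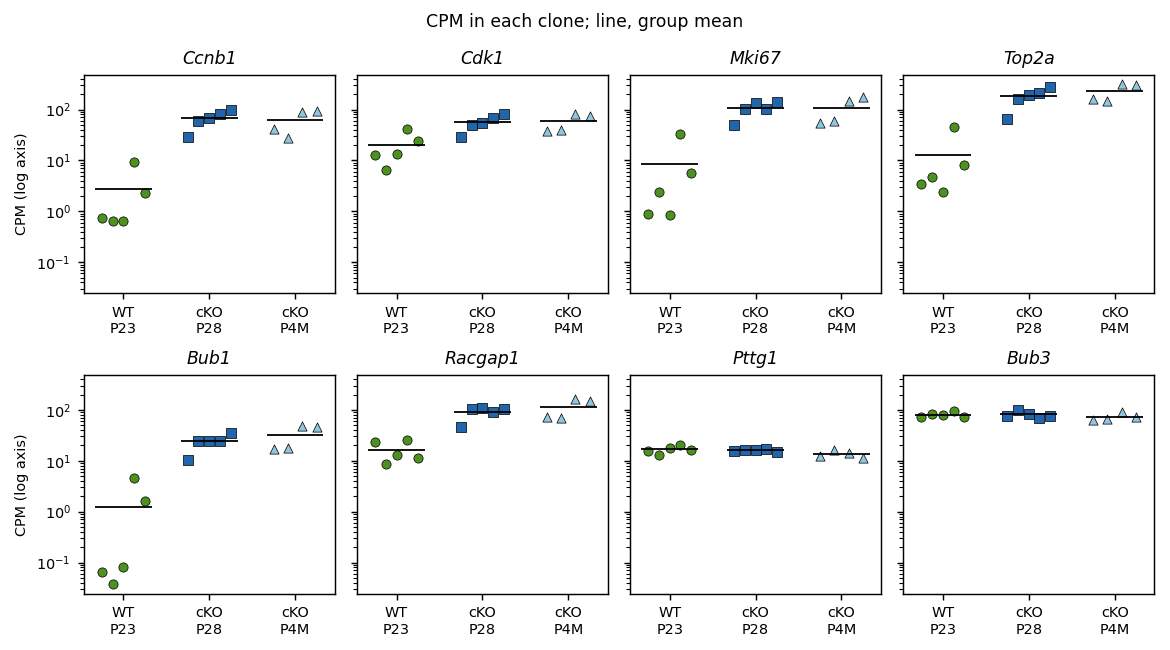
CPM of 8 members in each clone on a log axis, by group (WT P23, cKO P28, cKO P4M); each point is 1 clone, in replicate order from left to right, and lines are group means. Racgap1, Mki67, Top2a, Ccnb1 and Bub1 are separated between WT and cKO clones, Cdk1 overlaps, and Pttg1 and Bub3 lie at one level throughout the plot.

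The 4 condensin genes were all called higher in both groups. Smc4, an ATPase of condensin, was already abundant in WT clones at 46.2, 77.98, 53.7, 51.02 and 30.8 CPM and lay at 122, 159.7, 169, 142 and 157 in P28 and 143, 135, 239 and 233 in P4M, without overlap. Smc4 rose by 1.69 ± 0.22 on the log2 scale (SE, edgeR adjusted P = 6.2e-05), among the 3 smallest over all cKO clones of the genes called. Its ATPase partner Smc2 and the condensin I subunits Ncapg and Ncaph had log2 fold changes of 2.40, 3.42 and 3.83, which were 2.60, 4.47 and 4.44 without WT replicate 4. Of the exon bases of Ncapg, 13.4% overlap Lcorl on the opposite strand, and the kit did not mark strand. Among members of other roles, such overlap was 15.1% for Kif4 (with Pdzd11), 12.7% for Cdc25c (with Gm3550) and 11.1% for Prc1 (with Rccd1).

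The chromosomal passenger complex corrects faulty attachments and later marks the cell middle, and its 4 genes were called higher. Birc5 (survivin), its chromosome-targeting subunit, was at 0.456, 0.612, 0.324, 10.2 and 2.18 CPM in WT, at 7.96, 23.8, 27.99, 34.3 and 46.8 in P28 and at 18.2, 17.6, 48.2 and 49.8 in P4M. WT replicate 4 was above the lowest P28 clone, and the log2 fold change over all cKO clones was 3.46 ± 0.85 (SE, edgeR adjusted P = 0.0046), or 5.10 without it. Incenp, the scaffold of the complex, changed least of the genes called over all cKO clones and in P28, while Cdk1 did in P4M and, over all cKO clones without WT replicate 4, Smc4 did. Its CPM was 16.3, 17.8, 13.8, 37.05 and 22.9 in WT, 22.7, 45.6, 45.2, 63.8 and 75.7 in P28 and 39.5, 41.3, 59.3 and 120.1 in P4M, with overlap between WT and P28. Its log2 fold change was 1.41 ± 0.36 (SE, edgeR adjusted P = 0.0057), and its P28 call (adjusted P = 0.023) was lost without WT replicate 2 or 3 or P28 replicate 4 or 5, with adjusted P of 0.052 to 0.063. The kinase Aurkb and the subunit Cdca8 (borealin) had log2 fold changes of 3.74 and 3.53, or 4.95 and 4.54 without WT replicate 4.

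In the spindle assembly checkpoint, 4 of 5 genes were called higher. Bub1, a checkpoint kinase at kinetochores, held 1 or 2 counts in 3 WT clones. It was at 0.0652, 0.0383, 0.0809, 4.52 and 1.58 CPM in the WT clones and lay at 10.4, 24.9, 24.5, 24.7 and 35.7 in P28 and 17.3, 17.5, 47.4 and 45.3 in P4M. The log2 fold change was 4.43 ± 0.98 (SE, edgeR adjusted P = 0.0025) and 5.98 without WT replicate 4. Bub3, a binding partner of Bub1 that also acts outside the checkpoint, was not called. It lay at 71.1, 83.9, 80.6, 93.6 and 72.2 CPM in WT, at 76.7, 98.6, 83.6, 70.4 and 76.95 in P28 and at 63.6, 66.6, 90.5 and 71.4 in P4M, and the groups overlapped. Its log2 fold change was 0.02 ± 0.13 in P28 and -0.14 ± 0.14 in P4M (SE, edgeR adjusted P = 0.93 and 0.45). On the TPM scale Bub3 was the most abundant of the 5 genes, with means of 53.4, 66.2 and 52.2 in WT, P28 and P4M. Bub1b (BubR1), the kinase Ttk (Mps1) and Mad2l1 (Mad2) had log2 fold changes of 4.33, 3.19 and 1.91 over all cKO clones, and 5.22, 4.11 and 2.18 without WT replicate 4.

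All 7 genes of centromere and kinetochore were called higher. Cenpa, the histone H3 variant that defines centromeres, was at 0.456, 1.95, 0.769, 12.9 and 2.41 CPM in WT, at 16.5, 27.2, 37.1, 41.2 and 51.2 in P28 and at 19.8, 13.8, 47.7 and 53.7 in P4M. WT replicate 4 came close to the lowest P4M clone without reaching it. The log2 fold change was 3.20 ± 0.76 (SE, edgeR adjusted P = 0.0036) and 4.61 without WT replicate 4. The 4 genes of the Ndc80 complex, which grips microtubules, differed in size, with log2 fold changes of 4.11 for Ndc80, 3.64 for Nuf2, 3.40 for Spc24 and 1.97 for Spc25. Leaving out WT replicate 4 gave 5.71, 5.52, 4.67 and 2.25. The order of these 4 was not tested. Spc25 overlapped between WT and both cKO groups. It lay at 0.847, 3.18, 1.25, 8.62 and 11.2 CPM in WT, at 9.36, 13.4, 15.5, 28.1 and 31.8 in P28 and between 11.0 and 28.0 in P4M. Its P28 and P4M calls (edgeR adjusted P = 0.029 and 0.03) were lost, with adjusted P of 0.054 to 0.075, without WT replicate 2 or 3 and without P28 replicate 4 or 5 or P4M replicate 3 or 4 in the group compared. The kinesin Cenpe and the large coiled-coil protein Cenpf had log2 fold changes of 3.57 and 3.70, or 4.35 and 5.38 without WT replicate 4, and Cenpf overlapped between WT and P28.

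Spindle motors and microtubule proteins were called higher in 7 of 7 cases, and in none did the WT clones overlap a cKO group. Tpx2, which activates Aurora A on spindle microtubules, was at 6.52, 8.65, 8.41, 24.3 and 8.94 CPM in WT, at 57.05, 106, 87.4, 97.2 and 118 in P28 and at 59.4, 56.7, 151 and 151 in P4M. Tpx2 rose by 3.11 ± 0.40 on the log2 scale (SE, edgeR adjusted P = 6.4e-05). Kif11 (Eg5), which pushes the spindle poles apart, and Kif2c, a microtubule depolymerase, had log2 fold changes of 3.78 and 3.84. Kif4, a chromosome-bound motor, had 3.16, Hmmr 3.45, Nusap1 3.12 and Kif18a 2.30, the smallest of the role. Without WT replicate 4 the changes of Kif11, Kif2c, Kif4, Hmmr and Nusap1 were 5.07, 5.45, 4.65, 5.11 and 3.84.

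Of 4 genes of anaphase onset, 3 were called higher. Ube2c, the ubiquitin-conjugating enzyme of the anaphase-promoting complex, was at 0.0326, 0.6504, 0.202, 7.97 and 1.54 CPM in WT, at 17.2, 32.4, 32.3, 34.1 and 42.9 in P28 and at 20.5, 13.5, 46.8 and 60.2 in P4M, without overlap. Its log2 fold change was 3.99 ± 0.94 (SE, edgeR adjusted P = 0.0035) and 5.79 without WT replicate 4. Espl1, separase, was at 0.814, 0.421, 0.405, 4.92 and 1.702 CPM in WT, at 13.9, 28.3, 31.1, 37.9 and 48.8 in P28 and at 21.3, 16.2, 50.8 and 56.8 in P4M. Separase transcript rose by 4.35 ± 0.69 on the log2 scale (SE, edgeR adjusted P = 0.00025), or 5.34 without WT replicate 4. Cdc20, which activates the complex, had 3.93, or 4.94 without that clone. Pttg1, securin, the inhibitor that separase is freed from, was not called. It lay at 15.7, 13.2, 17.7, 20.5 and 16.5 CPM in WT, at 15.5, 16.4, 16.3, 17.2 and 15.1 in P28 and at 12.6, 16.3, 14.1 and 11.3 in P4M, and the groups overlapped. Its log2 fold change was -0.06 ± 0.15 in P28 and -0.31 ± 0.15 in P4M (SE, edgeR adjusted P = 0.79 and 0.12). Of the exon bases of Ube2c, 22.8% overlap Tnnc2 on the opposite strand.

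The 7 genes of the central spindle and cytokinesis were all called higher. Racgap1, a subunit of centralspindlin, was at 22.9, 8.57, 12.9, 25.8 and 11.2 CPM in WT, at 46.8, 104, 108, 92.2 and 104 in P28 and at 73.8, 70.5, 167 and 149.7 in P4M, without overlap. Racgap1 rose by 2.65 ± 0.35 on the log2 scale (SE, edgeR adjusted P = 8.1e-05). Its partner motor Kif23 had 4.12 and Ect2, the RhoA activator that centralspindlin recruits, had 4.09. The microtubule bundler Prc1 had 2.85, the motors Kif20a and Kif20b 3.88 and 2.52, and the ring scaffold Anln 3.30. Leaving out WT replicate 4 gave 5.13 for Kif23, 4.93 for Ect2, 4.23 for Prc1, 4.71 for Kif20a, 3.39 for Kif20b and 4.33 for Anln. Prc1 and Kif20b each overlapped between WT and a cKO group. Of the exon bases of Kif20a, 29.3% overlap Cdc23 on the opposite strand.

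Clones of a group differed from each other in the same way over nearly all members. WT replicate 4 was the highest WT clone in 47 of 49 genes, at a median of 6.02-fold over the median of the other WT clones. Even so, it exceeded the lowest P28 clone in 7 genes and the lowest P4M clone in 5. In the P28 group, replicate 1 was the lowest clone in 46 genes and replicate 5 the highest in 41. In the P4M group, replicates 3 and 4 were both above replicates 1 and 2 in 48 genes, at a median of 2.54-fold. The coefficient of variation of CPM had a median over the members of 114% in WT, 37.1% in P28 and 52.3% in P4M. The summed TPM of the 49 genes was 203 to 470 in the WT clones, 839 to 2298 in P28 and 889 to 2294 in P4M. In the WT group, 18 members had under 10 counts in at least 1 WT clone, and the lowest member count was 1, against 209 in the cKO clones.

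**Figure D4:**
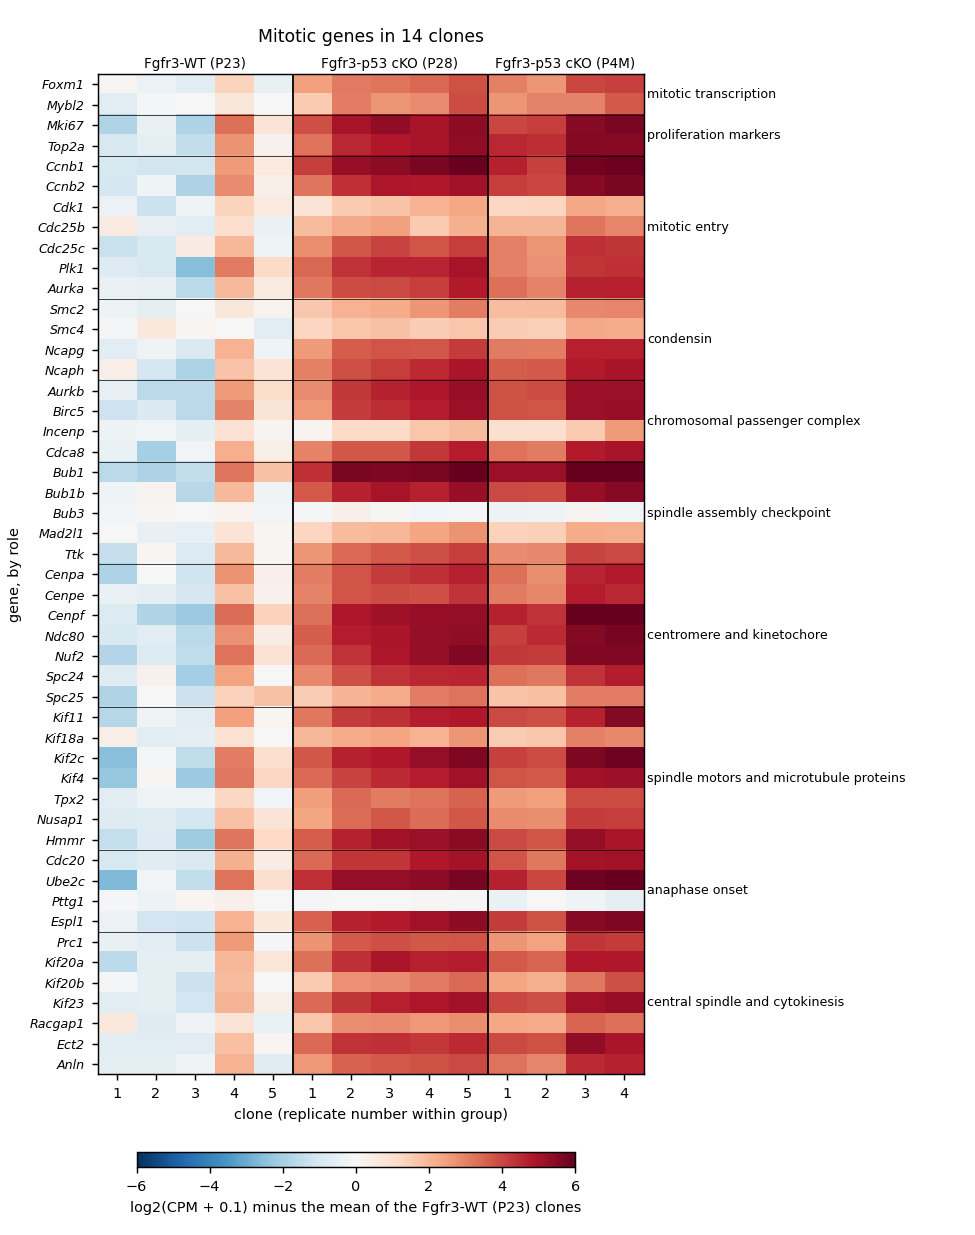
Log2(CPM + 0.1) of each member in each clone relative to the average of the 5 Fgfr3-WT (P23) clones (colour scale); rows are genes by role and columns are the replicates of the 3 groups. WT replicate 4 is the reddest WT column, P28 replicate 1 and P4M replicates 1 and 2 are the palest cKO columns, and the rows of Bub3 and Pttg1 stay near white.

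The ages of the cKO clones were then compared. No member was called between P4M and P28, where 7.22% of all tested genes were, and none reached an unadjusted P under 0.05 in edgeR, while DESeq2 also called 0. The median log2 fold change was 0.15, and the largest were -0.66 ± 0.88 for Plk1, 0.56 ± 0.92 for Cenpf and 0.54 ± 0.37 for Cdc25b (SE, n = 4 against 5). Those errors leave room for differences of either sign, so equal levels are not shown.

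Other genes of mitosis were counted in the same way, with no test of their difference from the members. Of 148 further mitotic genes, 99 were called higher and 10 lower over all cKO clones, with a median log2 fold change of 0.96, where 23.1% of all tested genes were called higher and 48.8% in either direction. The kinetochore and centromere genes among them were higher in 24 of 28 and lower in none (median 2.38), and the 4 other condensin genes were all higher (median 1.86). Subunits and regulators of the anaphase-promoting complex were higher in 7 of 17 and lower in 3 (median 0.26), cohesin genes were higher in 5 of 12 (median 0.29), and DREAM and MuvB genes were higher in 6 of 11 and lower in 2 (median 0.42). For the cohesin and anaphase-promoting complex genes, the share called in either direction lay near that of all tested genes. The 3 largest were Kif18b, a kinesin of microtubule plus ends (4.42 ± 0.88), Knl1, the kinetochore scaffold that holds Bub1 (4.404 ± 0.77), and Sapcd2 (4.401 ± 0.88). The 3 lowest called were Psrc1, a spindle protein known as a p53 target (-3.79 ± 0.66), Chmp2a of the abscission machinery (-1.21 ± 0.17) and Anapc13 (-1.16 ± 0.14), each as log2 fold change with SE. Of 43 DNA replication genes, which act in S phase, 39 were called higher and none lower, with a median log2 fold change of 1.54.

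**Figure D5:**
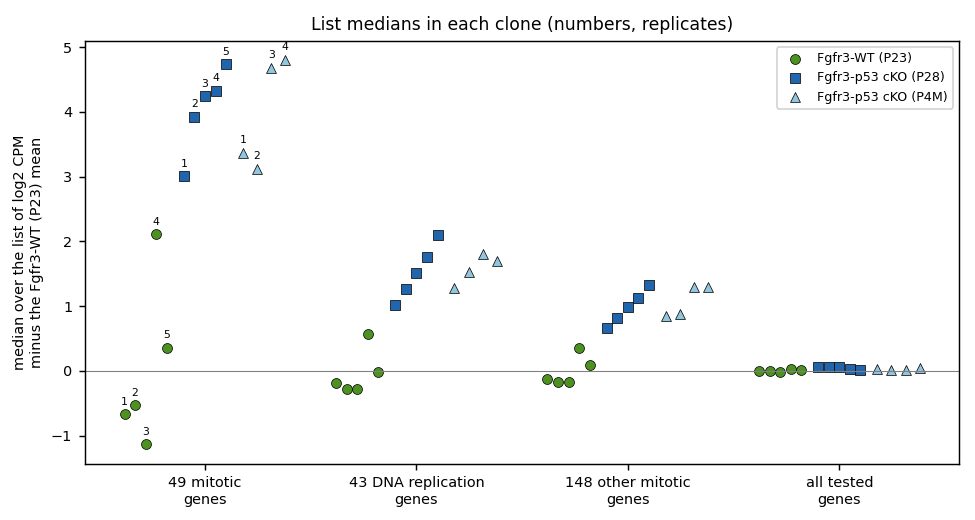
Median over each gene list of log2 CPM relative to the average of the Fgfr3-WT (P23) clones, for each clone (symbols by group, replicate numbers beside the first list). The mitotic genes run from -1.14 to 2.11 in WT and from 3.004 to 4.80 in cKO clones, the replication genes from -0.28 to 0.57 and from 1.02 to 2.09, and the median of all genes stays within 0.07 of 0.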

How the data were processed

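The 49 members, their roles and the comparison lists were chosen with earlier results of these data known. Per the labels and methods, RNA was extracted with PicoPure, amplified with SMART-Seq v4, which does not mark strand, and sequenced single-end. The authors aligned reads to mm10 with TopHat and Bowtie2 and counted reads with HTSeq, and their deposited counts are whole numbers without normalization. The deposited TPM values, normalized by the authors for gene length and depth, were used for levels between genes and in 1 alternative. The other deposited tables were not used.

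Counts were tested in R 4.3.3 with edgeR 4.0.16: filterByExpr by the 3 groups (17358 genes kept), TMM scaling, a robust quasi-likelihood fit without intercept to all 14 clones, and Benjamini-Hochberg adjustment over all tested genes at an FDR of 0.05. SE is the absolute log2 fold change divided by the square root of F. Log2 CPM used a prior count of 2. A count of 0 allows up to 3 counts per library, and intervals and floors cover counting error only. No 2 libraries of a group agreed within sampling noise. Replicate numbers are running numbers. Alternatives were DESeq2 1.42.0, RLE or no scaling, other filters, only the groups compared, and leaving out each clone. On simulated data, the step for all cKO against WT called 61.5% of genes changed by 2 on the log2 scale and 24.7% of those changed by 1, over 17108 tested genes.

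Genes named with every clone's value were, per role, that of highest mean TPM, the 3 largest and 3 smallest changes, those not called, and Foxm1, Mybl2, Cdk1, Ccnb1, Mki67 and Top2a. Spc25 was added after its values were seen, with every WT and P28 clone and the range in P4M. Of the other mitotic genes, the 3 largest and 3 lowest called are named. Overlaps were taken from GENCODE M21 on GRCm38 and near copies from blastn 2.17.0 (at least 95% identity over 200 bases). Promoters are from RefSeq on GRCm38.p6. Protein sequences were not analysed here.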

Additional observations from a re-analysis of the deposited data

Results flagged for a closer look

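Fgfr3-WT replicate 4 lay far above the other 4 WT clones in 31 genes, where its gap to the next clone, divided by the range of the group, exceeded Dixon's 95% critical value. Its CPM was Foxm1 15.02, Mki67 33.4, Top2a 44.96, Ccnb1 9.22, Ccnb2 9.76, Cdc25c 3.22, Plk1 11.1 and Ncapg 7.88. In the same clone CPM was Birc5 10.2, Cdca8 7.82, Bub1b 5.06, Ttk 4.15, Cenpa 12.9, Cenpe 10.95, Cenpf 15.7 and Ndc80 6.17. The values of the next genes, in CPM, were Nuf2 10.6, Spc24 4.81, Kif11 10.5, Kif2c 6.12, Kif4 13.9, Tpx2 24.3, Hmmr 10.6 and Cdc20 10.7. The last of these genes, in CPM, were Ube2c 7.97, Espl1 4.92, Prc1 23.02, Kif20b 14.7, Kif23 6.12, Ect2 6.94 and Anln 46.3. In the P28 group, replicate 1 was far below the other clones in 2 genes, with 25.1 CPM for Prc1 and 46.8 CPM for Racgap1. These were 33 of 147 gene and group pairs tested. A chance rate of about 1 in 20 holds only for normally spread values. The ratio was taken on linear CPM, where the median coefficient of variation over the members was 114% in WT. The share flagged therefore cannot be set against that rate, and the flags were not computed on a log scale. The genes are not independent, since a clone that is high in 1 mitotic gene tends to be high in the others. Why this clone differs was not tested.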

How the results depend on the processing

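Against WT, 47 members were called in each of the 3 contrasts also with DESeq2, with RLE and with no scaling, and 45 to 47 without a filter or with only the groups compared. Leaving out each clone gave 45 to 47 in P28, 45 to 47 in P4M and 47 to 47 over all cKO clones. With at least 10 counts in every clone, 31 members were left and 29 were called in each of the 3 contrasts, fewer because fewer were tested. Calls of Plk1, Spc25 and Incenp were lost in some of these fits. Genes called between P4M and P28 numbered 1254, and 2814 with DESeq2, 3051 with only the groups compared, and 480 (without P4M replicate 1) to 2132 (without WT replicate 1) when a clone was left out; members called stayed at 0. The mean of the clones' member medians was 3.03 in P28 and 2.88 in P4M on log2(TPM + 1), in place of 4.05 and 3.99. Promoter shares within the 250 bases before the start alone were 34.1% for TTTGAA, 36.6% for either CHR form and 34.1% for both kinds of letters. Values near 0 changed sign: Bub3 in P28 was -0.0017 with only the groups compared and ranged from -0.077 to 0.076 over left-out clones, being -0.051, -0.020, -0.077 and -0.012 where it turned. Pttg1 in P28 was 0.046 without scaling, and -0.13 to 0.026 over left-out clones, the last without WT replicate 4. Bub3 over all cKO clones was 0.0064 without scaling and 0.0074 without a filter. No paired analysis was possible, because the groups came from mice that differed in genotype or in age at isolation, and the labels link no clones across groups. The share of proteins with a KEN motif was not run. Genotype cannot be told apart from the leading number of the library titles, nor, between WT and P28 clones, from time in culture. Low counts in WT clones limit the size of the largest changes.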
